A study of Mus musculus with 32 samples.

Results

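The RNA of 10 genes was followed in mouse fetal liver hematopoietic progenitor cells: the MHC class I heavy chain genes H2-K1, H2-D1, H2-T22, H2-T23, H2-Q4, H2-Q6, H2-Q7 and H2-M3, the light chain gene B2m, and Nlrc5. They were taken by symbol, and all 10 were found among the 55487 gene identifiers of the deposited tables. Mutant cells (hi-77-/-, genotype Gata2 -77-/-) lack the -77 enhancer of Gata2 on both alleles, and WT cells (hi-77+/+) keep it. Both lines were immortalized with ER-HOXB8, a fusion that holds progenitors in division while estradiol is present, and both grew in the same medium with estradiol, SCF-conditioned medium and G418. Cells of each genotype were treated for 4 h with IFNg (1 ng/ml), with Pam3CSK4 (100 ng/ml), with both agonists, or with vehicle, giving 8 groups of 4 libraries. Each genotype is 1 line, so genotype and line cannot be told apart, and no label tells whether the 4 replicates were cultured separately. The p-values therefore measure the spread between these libraries, which may be technical.

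MHC class I molecules are a heavy chain held together with beta-2 microglobulin, and they display peptides from inside the cell to CD8 T cells and natural killer cells. NLRC5 is a nuclear NOD-like receptor protein that has no DNA-binding domain of its own and acts on the SXY module of class I promoters through the RFX, CREB/ATF and NF-Y factors. IFNg induces the transcription factor IRF1, and Pam3CSK4 is a synthetic lipopeptide that activates TLR2 and through it NF-kB.

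The promoter stretches below are shown because they carry the letters that the 2 agonists' known pathways and NLRC5's partners are associated with, and because the genes differ in which of these letters they hold. They come from RefSeq windows of 300 bases (250 before to 50 after the annotated start, build GRCm38.p6), read 5′ to 3′ on the gene's strand. Capitals mark matches, on either strand, to GGGNNTTCC or the same letters with 1 more N in the middle (NF-kB type), GAAANNGAA or GAANNGAAA (ISRE type), TGACG (X2 type, as CREB/ATF factors bind) and CCAAT (Y type, as NF-Y binds; ATTGG on the other strand).
H2-K1 (chr17:34000325-34000468, minus strand): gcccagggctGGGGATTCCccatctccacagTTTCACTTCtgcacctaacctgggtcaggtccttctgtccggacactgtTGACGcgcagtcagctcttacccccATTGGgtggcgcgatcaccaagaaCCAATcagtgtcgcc
H2-D1 (chr17:35262913-35263055, plus strand): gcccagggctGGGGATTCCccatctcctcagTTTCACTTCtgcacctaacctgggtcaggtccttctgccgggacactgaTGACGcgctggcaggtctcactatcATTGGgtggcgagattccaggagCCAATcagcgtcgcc
H2-Q4 (chr17:35379433-35379576, plus strand): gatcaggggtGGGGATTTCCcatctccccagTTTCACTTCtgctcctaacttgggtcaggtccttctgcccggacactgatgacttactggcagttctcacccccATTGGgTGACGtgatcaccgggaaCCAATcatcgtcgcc
H2-Q7 (chr17:35439012-35439153, plus strand): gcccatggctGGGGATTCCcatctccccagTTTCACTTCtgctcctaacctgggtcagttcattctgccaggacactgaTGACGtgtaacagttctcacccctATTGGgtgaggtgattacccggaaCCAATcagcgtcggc
H2-T23 (chr17:36032739-36032834, minus strand): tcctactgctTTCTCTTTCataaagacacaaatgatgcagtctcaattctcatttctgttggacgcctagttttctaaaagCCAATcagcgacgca
B2m (chr2:122147538-122147648, plus strand): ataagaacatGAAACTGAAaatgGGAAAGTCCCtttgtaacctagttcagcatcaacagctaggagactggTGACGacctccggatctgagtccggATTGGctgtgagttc

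Of the 10 genes 9 had a window in the RefSeq table, and none was found there for Nlrc5. The 9-base NF-kB letters were present in 5 of these 9 windows (H2-K1, H2-D1, H2-Q4, H2-Q6 and H2-Q7) and in 5.8% of all 32851 windows. With the 10-base spelling, which 5.6% of all windows hold, B2m was added, giving 6 of 9 against 9.7% of all windows. The ISRE letters were present in 9 of 9, against 14.8% of all windows, and CCAAT in 9 of 9, against 37.4%. TGACG was present in 7 of 9 windows, all except those of H2-T23 and H2-Q6, against 20.8% of all windows. Its place differed. In H2-K1, H2-D1, H2-Q7, H2-M3 and B2m a TGACG match lay before an ATTGG match. In H2-Q4 the match at -73 to -69 lay after ATTGG, and in H2-T22 the match at -22 to -18 lay after every CCAAT match. Where H2-K1, H2-D1 and H2-Q7 hold TGACG, H2-Q4 and H2-Q6 hold other letters (tgact and tgacc). In the stretches shown the only overlap was that of the 9-base and 10-base NF-kB spellings in H2-Q4. TTCNNNGAA (GAS type) was searched too and was present only in H2-M3, against 8.3% of all windows. The 5 motifs and their spellings were chosen with the sequences and the genes' responses known, so no relation between letters and responses is drawn. A match is a description of letters, not of a bound factor, and a gene without one may hold another spelling.

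**Figure D1:**
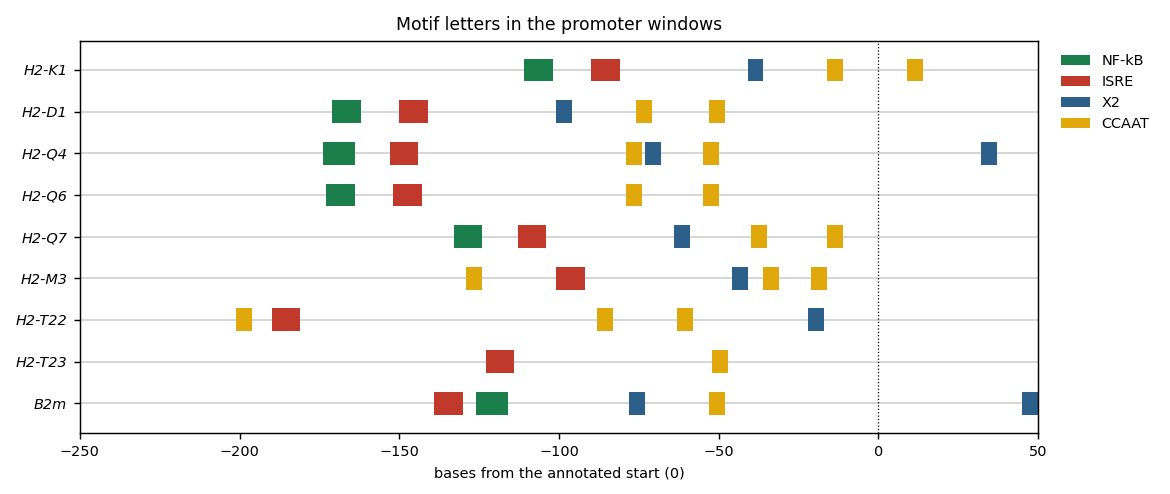
Matches to 4 motifs in the promoter windows of 9 genes, by distance in bases from the annotated start (horizontal axis). H2-K1, H2-D1, H2-Q4, H2-Q6 and H2-Q7 share an NF-kB type match followed by an ISRE type match, B2m has an ISRE type match followed by an NF-kB type match, and H2-M3, H2-T22 and H2-T23 hold neither of the 2 NF-kB spellings.

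The 32 libraries held 44182690 to 71424183 expected counts each, with 17427 to 21034 genes detected. Gata2 itself was at 6.01 to 8.42 CPM in the mutant libraries and 35.1 to 54.7 CPM in the WT libraries, with no overlap. All 8 progenitor markers were at 1 CPM or more in both genotypes, with summed levels of 4735 to 5403 CPM in mutant and 4777 to 5321 CPM in WT cells. Of the other marker lists, early B lymphoid genes summed to 96.1 to 112 CPM in mutant and 32.5 to 44.0 CPM in WT cells. Mast cell genes summed to 46.5 to 69.5 CPM in mutant and 196 to 291 CPM in WT cells, and erythroid genes to 3.78 to 5.70 CPM in mutant and 24.6 to 41.9 CPM in WT cells. Megakaryocyte genes summed to 9.61 to 14.6 CPM in mutant and 18.2 to 23.8 CPM in WT cells, and macrophage and dendritic genes to at most 6.94 CPM in mutant and at least 19.6 CPM in WT cells. Of 7 T and NK cell markers 0 reached 1 CPM in either genotype (summed 0.0841 to 0.650 CPM in mutant and 0 to 0.271 CPM in WT cells), with Cd3e and Ncr1 at 0 in both. Counts in mitochondrial and small structural RNA genes took 21.08% ± 3.89, 27.33% ± 2.12, 22.96% ± 4.77 and 25.76% ± 1.78 of mutant libraries (IFNg, Pam3CSK4, both, vehicle) and 15.9% ± 1.87, 14.84% ± 1.47, 13.62% ± 0.61 and 23.96% ± 4.17 of WT libraries (SD, n = 4 each).

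Before any stimulus, Nlrc5, B2m and 5 of the 6 heavy chain genes detected in both lines were at higher levels in mutant than in WT cells. Among these the widest difference was that of Nlrc5, the class I transactivator. Nlrc5 had 75.4, 73.7, 76.6 and 71.7 CPM (expected counts scaled to TMM-adjusted library size) in the 4 mutant vehicle libraries, against 13.4, 14.0, 14.4 and 12.8 CPM in the WT vehicle libraries. The lowest mutant library lay far above the highest WT library, a 5.43-fold difference (log2 fold change 2.44 ± 0.05 SE; edgeR quasi-likelihood test, Benjamini-Hochberg adjusted p = 1.2e-29). Counting the 8 genes detected in both genotypes, 7 were higher in mutant cells and 0 lower, beside 24.4% of the 14869 genes tested that were called higher and 29.3% called lower. Their median log2 fold change was 1.02, against -0.015 over all genes tested. In bulk RNA, more cells of a type and more RNA per cell cannot be told apart. The part in these differences of the marker lists that differ between the lines was not tested.

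The classical heavy chains, which present peptides to CD8 T cells, followed. H2-K1 had 324, 348, 336 and 314 CPM in the mutant vehicle libraries, against 186, 183, 186 and 190 CPM in the WT vehicle libraries. H2-D1 had 341, 376, 374 and 353 CPM in mutant cells, against 150, 148, 153 and 156 CPM in WT cells. Neither gene's libraries overlapped between genotypes; the log2 fold changes were 0.83 ± 0.03 for H2-K1 (edgeR adjusted p = 2.3e-22) and 1.25 ± 0.03 for H2-D1 (edgeR adjusted p = 2.0e-26). B2m, the gene of the class I light chain, had 618, 592, 598 and 564 CPM in mutant cells, against 270, 262, 233 and 263 CPM in WT cells. Its groups did not overlap either, a 2.31-fold difference (log2 1.21 ± 0.04, edgeR adjusted p = 1.6e-24).

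The non-classical heavy chains divided. H2-Q4, a Q-region gene, had 9.12, 10.7, 11.2 and 10.2 CPM in mutant vehicle libraries, against 2.52, 2.68, 2.63 and 2.84 CPM in WT vehicle libraries, a 3.86-fold difference without overlap (edgeR adjusted p = 6.8e-23). H2-T22, which encodes a ligand of some gamma-delta T cell receptors, ranged from 16.3 to 18.2 CPM in mutant and from 9.42 to 11.6 CPM in WT cells (log2 0.70 ± 0.06). H2-M3, which presents N-formylated peptides, ranged from 10.7 to 12.3 CPM in mutant and from 7.29 to 8.68 CPM in WT cells (log2 0.53 ± 0.06). H2-T23, which encodes Qa-1, the ligand of CD94/NKG2 receptors, was the exception: with 11.3 ± 0.762 CPM in mutant and 10.5 ± 0.416 CPM in WT cells (SD, n = 4 each) its libraries overlapped (log2 0.11 ± 0.05, edgeR adjusted p = 0.097, or 0.042 with RLE size factors).

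H2-Q7 and H2-Q6, which encode the GPI-anchored Qa-2 antigen, were seen almost only in mutant cells, at low levels. H2-Q7 had 0.195, 0.406, 0.449 and 0.225 CPM in the mutant vehicle libraries and 0 counts in all 16 WT libraries. Set against 3 counts over the 4 WT vehicle libraries (0.0140 CPM), the mutant level was at least 22.2-fold higher. H2-Q6 was near the limit in mutant vehicle cells (2.23 expected counts over 4 libraries) and had 1 count in 1 of 16 WT libraries, under the combined treatment. Both genes passed the filter on low counts only through the mutant groups, so they are left out of the counts of called genes, except in the section on processing. Their transcripts share sequence with neighbouring class I genes: 651 of the 2036 windows of 50 bases in H2-Q6 transcripts and 1188 of the 4499 in H2-Q7 transcripts occur in transcripts of another gene. The genes sharing most were H2-Q7, H2-Q4 and H2-Q5 for H2-Q6, and H2-Q10, H2-Q5 and H2-Q6 for H2-Q7. The part of H2-Q4 reads in the H2-Q6 counts was not tested. Whether the 2 lines differ in the sequence of these or the other heavy chain genes was not tested either. The share of such windows was 34.5% for H2-T22 (mostly with H2-T10), 21.8% for H2-Q4, 13.6% for H2-T23, 12.8% for H2-D1, 9.6% for H2-K1, 0.6% for H2-M3 and 0 for B2m and Nlrc5. Levels of the genes with high shares depend on how RSEM divided such reads; 22 of 32 libraries had a fractional H2-T22 count. Exons of genes on the opposite strand cover 29.4% of the exon bases of H2-T22, 19.1% of those of H2-Q4 and 0.9% of those of Nlrc5, and reads of such pairs are told apart only where strand was used in counting.

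**Figure D2:**
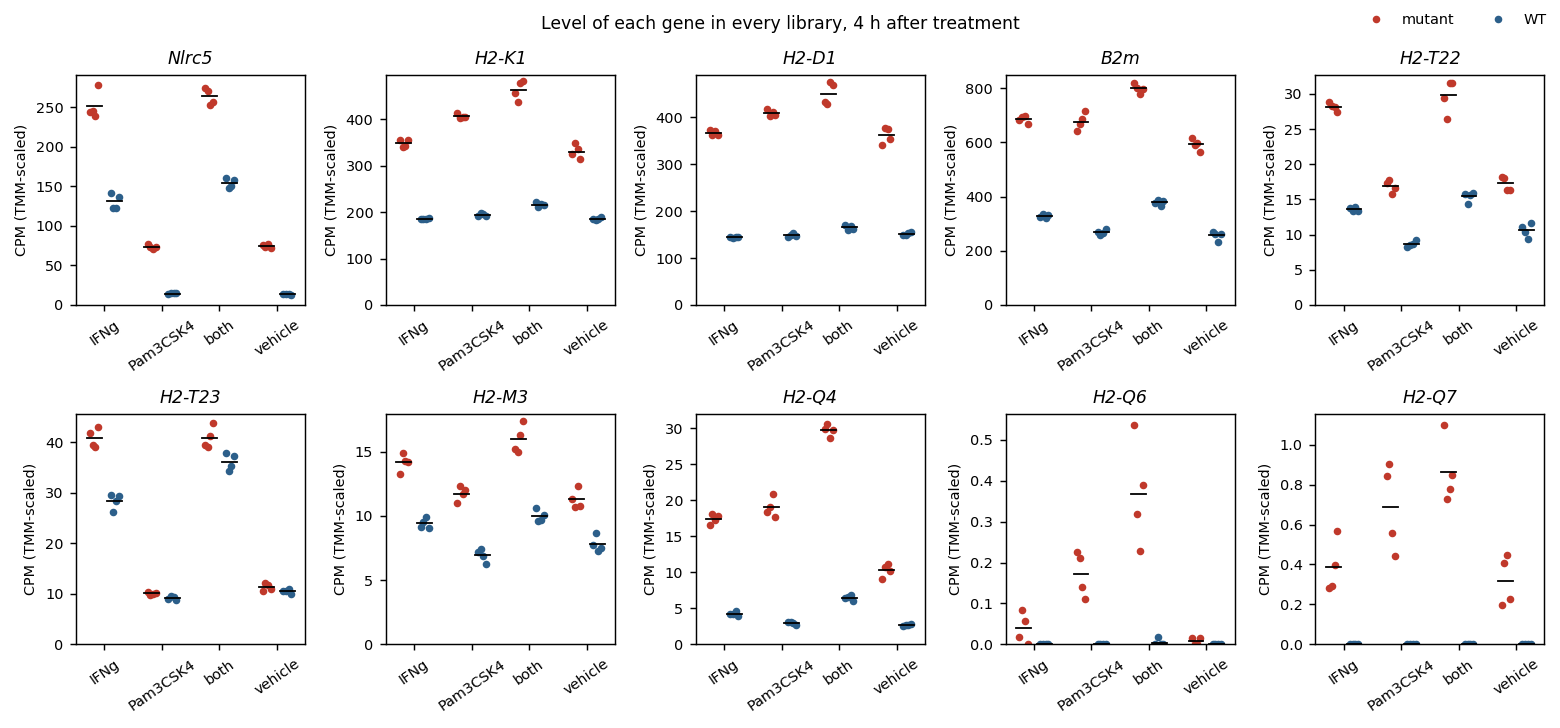
CPM of each of the 10 genes in every library (points, n = 4 per group) with group means (black lines), by treatment, mutant cells in red and WT cells in blue; each vertical axis starts at 0 and has its own scale. Mutant libraries of H2-K1, H2-D1, B2m and H2-Q4 lie above all WT libraries of the same treatment, and Nlrc5 and H2-T23 form a high pair of groups (IFNg, both) and a low pair (Pam3CSK4, vehicle) in each genotype.

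In TMM-scaled counts the genotype difference was present under every treatment. Under IFNg 8 of the 8 genes detected in both genotypes were higher in mutant cells (25.7% of all tested genes were called higher), under Pam3CSK4 8 of 8 (32.1% of all) and under both agonists 8 of 8 (30.5% of all). For H2-K1 the log2 fold changes of mutant over WT cells were 0.91, 1.06 and 1.10 under IFNg, Pam3CSK4 and both agonists, and 0.83 under vehicle. For H2-D1 they were 1.35, 1.46 and 1.45, and 1.25 under vehicle. The excess of Nlrc5 in mutant cells was 1.92-fold under IFNg and 1.71-fold under both agonists, but 5.09-fold under Pam3CSK4 and 5.43-fold under vehicle.

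H2-T23 differed most clearly between genotypes under IFNg, with 41.8, 39.5, 39.1 and 43.0 CPM in mutant libraries, against 29.6, 26.3, 28.3 and 29.3 CPM in WT libraries (log2 0.52 ± 0.05, edgeR adjusted p = 9.9e-12). Under Pam3CSK4 and under both agonists its excess was small, at 0.14 ± 0.05 (edgeR adjusted p = 0.025) and 0.18 ± 0.05 (edgeR adjusted p = 0.002). Once the structural RNA share entered the fit, the edgeR adjusted p of these values was 0.30 under Pam3CSK4 and 0.050 under both agonists. H2-Q7 was at least 31.8-fold higher in mutant cells under IFNg, at least 53.8-fold under Pam3CSK4 and at least 69.2-fold under both agonists. H2-Q6 was at least 13.4-fold higher in mutant cells under Pam3CSK4.

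**Figure D3:**
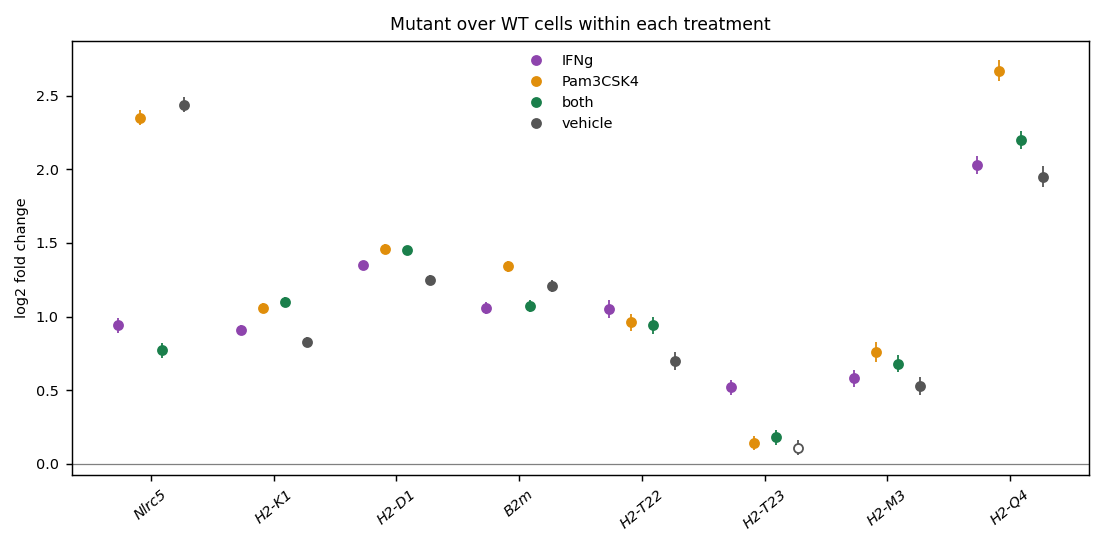
Log2 fold change of mutant over WT cells (vertical axis, points with SE bars from the edgeR fit) for the 8 genes detected in both genotypes, by treatment in colour; filled points passed the adjusted p threshold of 0.05 and open points did not. Nlrc5 spans the range from 0.77 to 2.44 across treatments, H2-D1 lies between 1.25 and 1.46, and the one open point is H2-T23 under vehicle.

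At 4 h IFNg raised Nlrc5, B2m and the 4 non-classical heavy chain genes detected in both lines (H2-T23, H2-Q4, H2-T22 and H2-M3). In TMM-scaled counts H2-K1 and H2-D1 did not pass the test. Of the 8 genes 6 rose and 0 fell in mutant cells (18.3% of all tested genes rose and 14.9% fell), and the count was 6 and 0 in WT cells as well (17.8% of all rose and 17.6% fell). Nlrc5 had 244, 245, 239 and 278 CPM in IFNg-treated mutant libraries, 3.38-fold over vehicle (edgeR adjusted p = 3.9e-26). In WT cells it had 142, 122, 123 and 137 CPM under IFNg, 9.57-fold over vehicle (edgeR adjusted p = 7.1e-33). No IFNg library overlapped a vehicle library of its genotype.

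H2-T23 rose 3.61-fold in mutant cells and 2.70-fold in WT cells, the widest response in each line among the heavy chain genes detected in both. H2-Q4 rose to 17.4 ± 0.723 CPM in IFNg-treated mutant cells, against 10.3 ± 0.888 CPM in vehicle (SD, n = 4 each; log2 0.76 ± 0.06), and to 4.26 ± 0.261 CPM in IFNg-treated WT cells, against 2.67 ± 0.131 CPM in vehicle (log2 0.68 ± 0.07). The smaller rises were those of H2-T22 (log2 0.71 ± 0.06 in mutant and 0.36 ± 0.06 in WT cells), H2-M3 (0.33 ± 0.06 and 0.27 ± 0.07) and B2m (0.21 ± 0.04 and 0.35 ± 0.04).

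H2-K1 had 354, 339, 342 and 356 CPM in IFNg-treated mutant libraries and 184, 184, 185 and 188 CPM in IFNg-treated WT libraries, overlapping the vehicle libraries in both genotypes. Its log2 fold changes were 0.07 ± 0.03 in mutant cells (edgeR adjusted p = 0.059) and -0.01 ± 0.03 in WT cells (edgeR adjusted p = 0.91). The mutant value was 0.10 and passed the threshold once the structural RNA share entered the fit (edgeR adjusted p = 0.008). H2-D1 differed by 0.02 ± 0.03 in mutant cells (edgeR adjusted p = 0.66). In WT cells its IFNg libraries (143 to 145 CPM) lay just below the vehicle libraries (148 to 156 CPM), a log2 difference of -0.08 ± 0.03 (edgeR adjusted p = 0.082, or 0.049 with RLE size factors).

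**Figure D4:**
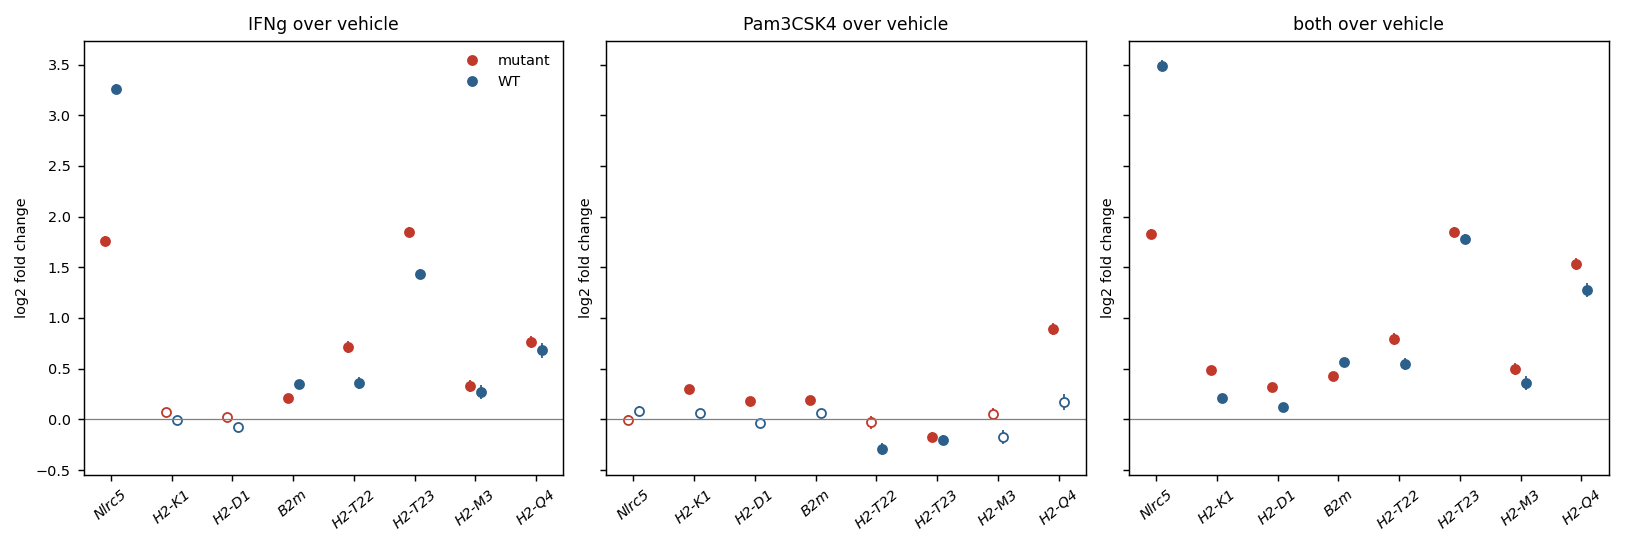
Log2 fold change over vehicle (vertical axis, SE bars from the edgeR fit) of 8 genes under IFNg, Pam3CSK4 and both agonists, mutant cells in red and WT cells in blue; open points did not pass the adjusted p threshold of 0.05. Nlrc5 and H2-T23 stand above the others under IFNg and under both agonists, while H2-K1 and H2-D1 lie near 0 under IFNg and are raised in mutant cells under Pam3CSK4.

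In TMM-scaled counts Pam3CSK4 gave another pattern, and mainly in mutant cells. There 4 of the 8 genes rose and 1 fell, beside 11.5% of all tested genes that rose and 12.8% that fell. H2-K1 had 414, 403, 404 and 404 CPM in mutant libraries under Pam3CSK4, all above the mutant vehicle libraries (log2 0.30 ± 0.03, edgeR adjusted p = 1.5e-09). H2-D1 had 417, 402, 411 and 404 CPM, again without overlap (log2 0.18 ± 0.03, edgeR adjusted p = 1.1e-04). H2-Q4 rose most, to 18.4, 19.0, 20.9 and 17.7 CPM (log2 0.89 ± 0.06, edgeR adjusted p = 4.8e-14), and B2m rose by a log2 of 0.19 ± 0.04.

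The Qa-2 genes were also higher in mutant cells under Pam3CSK4. H2-Q7 had 0.845, 0.906, 0.558 and 0.443 CPM (log2 1.13 ± 0.32 over vehicle, edgeR adjusted p = 0.012), with the lowest library just inside the vehicle range. H2-Q6 had 0.227, 0.211, 0.140 and 0.111 CPM, 17.9 times the vehicle level (95% counting interval 5.21 to 173). Nlrc5 (log2 -0.01 ± 0.05), H2-T22 (-0.03 ± 0.06) and H2-M3 (0.05 ± 0.06) did not pass the test. H2-T23 fell by 0.17 ± 0.05 on the log2 scale (edgeR adjusted p = 0.020, or 0.055 when only the groups compared were fitted).

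In WT cells 0 of the 8 genes rose under Pam3CSK4 (10.4% of all tested genes rose) and 2 fell (11.7% of all fell). H2-K1 had 192, 198, 196 and 192 CPM under Pam3CSK4, just above the vehicle libraries (log2 0.06 ± 0.03, edgeR adjusted p = 0.14). H2-Q4 had a log2 fold change of 0.17 ± 0.08 (edgeR adjusted p = 0.12). The genes that fell were H2-T22 (log2 -0.29 ± 0.06, edgeR adjusted p = 0.001) and H2-T23 (-0.20 ± 0.05, edgeR adjusted p = 0.007). The structural RNA share moved with this comparison (14.84% under Pam3CSK4 and 23.96% under vehicle), and 0 of the genes passed once the share entered the fit.

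Both agonists together raised each of the 8 genes detected in both lines. In mutant cells 8 of the 8 rose (23.7% of all tested genes rose), and in WT cells 8 of 8 (21.2% of all). H2-K1 had 457, 437, 477 and 481 CPM in mutant cells under both agonists, above every library of the other mutant groups. It had 221, 210, 218 and 215 CPM in WT cells, again above every other WT library. Its log2 fold changes over vehicle were 0.49 ± 0.03 in mutant cells (edgeR adjusted p = 1.7e-15) and 0.21 ± 0.03 in WT cells (edgeR adjusted p = 6.9e-07).

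H2-D1 rose less, by a log2 of 0.32 ± 0.03 in mutant and 0.12 ± 0.03 in WT cells. B2m reached 799 ± 17.1 CPM in mutant and 380 ± 9.63 CPM in WT cells under both agonists (SD, n = 4 each), the highest group mean of each line. H2-Q4 rose 2.89-fold in mutant cells and 2.43-fold in WT cells. Nlrc5 rose 3.55-fold in mutant and 11.3-fold in WT cells, and H2-T23 rose 3.61-fold and 3.44-fold.

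Set against IFNg alone, the combination raised 5 of the 8 genes in mutant cells (9.33% of all tested genes rose) and 7 of 8 in WT cells (4.41% of all). H2-K1, H2-D1, B2m and H2-Q4 were among them in both lines, with log2 differences of 0.41, 0.29, 0.22 and 0.78 in mutant cells and 0.22, 0.19, 0.21 and 0.60 in WT cells. H2-M3 in mutant cells (adjusted p = 0.048, edgeR) lost its call when 1 library was left out in 21 of 32 cases. It also lost it with RLE size factors (edgeR adjusted p = 0.053), without the filter (0.15), with the replicate block (0.057), with the structural RNA share in the fit (0.060) and in the fit of the groups compared (0.090). H2-T22 in WT cells (edgeR adjusted p = 0.042) lost its call in 7 of 32. H2-T23 in mutant cells stayed at the IFNg level, with 40.9 ± 2.23 CPM under both agonists and 40.8 ± 1.88 CPM under IFNg (SD, n = 4 each).

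The combined response was also compared with the sum of the 2 single log2 responses. In mutant cells 0 of the 8 genes departed from that sum by edgeR's quasi-likelihood test (1.86% of all tested genes did), 3 had an unadjusted p under 0.05, and DESeq2 called 0 as well. In WT cells 4 of the 8 lay above the sum (0.343% of all tested genes did): H2-T23 by a log2 of 0.55 ± 0.07, H2-T22 by 0.48 ± 0.08, H2-Q4 by 0.43 ± 0.10 and H2-D1 by 0.23 ± 0.05. The structural RNA share was highest in the WT vehicle libraries, and 2 of the 4 genes, H2-T23 and H2-T22, passed with it in the fit. Only H2-T23 passed when the 2 WT vehicle libraries with the highest share, numbers 1 and 4, were left out.

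The difference between the genotypes' log2 responses was tested directly. For IFNg 3 of the 8 genes differed, 2 with a larger response in mutant cells (0.827% of all tested genes) and 1 with a smaller one (0.820% of all). Nlrc5 had the smaller log2 response in mutant cells, by -1.50 ± 0.07 (edgeR adjusted p = 3.1e-17). That response is a ratio to vehicle: mean Nlrc5 levels went from 74.3 to 252 CPM in mutant and from 13.7 to 131 CPM in WT cells. H2-T23 had a larger one by 0.42 ± 0.07 (edgeR adjusted p = 4.0e-04) and H2-T22 by 0.35 ± 0.08 (edgeR adjusted p = 0.017, and 0.062 without WT vehicle library 4). For H2-K1 and H2-D1 the differences were 0.08 ± 0.04 and 0.10 ± 0.05 (edgeR adjusted p = 0.41 and 0.35).

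For Pam3CSK4 4 of the 8 genes had a more positive log2 response in mutant than in WT cells, beside 14.3% of all tested genes. They were H2-Q4 (difference 0.72 ± 0.10), H2-T22 (0.26 ± 0.08), H2-K1 (0.23 ± 0.04) and H2-D1 (0.21 ± 0.05). For H2-T22 this was a fall in WT cells (-0.29 ± 0.06) with no called change in mutant cells (-0.03 ± 0.06). H2-Q4 and H2-K1 still passed after adjustment for the structural RNA share; H2-D1 and H2-T22 did not (edgeR adjusted p = 0.16 and 0.55). Under both agonists H2-K1 (0.27 ± 0.04), H2-T22 (0.24 ± 0.08) and H2-D1 (0.20 ± 0.05) had the larger response in mutant cells (8.80% of all tested genes did) and Nlrc5 the smaller one (-1.67 ± 0.07; 6.99% of all). After that adjustment H2-K1 and Nlrc5 kept their calls, while H2-D1 (edgeR adjusted p = 0.061) and H2-T22 (0.37) lost them.

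Per transcript length, H2-K1 and H2-D1 made up most of the heavy chain RNA in every group. Their joint share of the summed TPM of the 8 heavy chain genes was 85.6% ± 0.247 under IFNg, 92.4% ± 0.190 under Pam3CSK4, 87.0% ± 0.225 under both agonists and 92.1% ± 0.0952 under vehicle in mutant cells. In WT cells it was 83.2% ± 0.356, 91.3% ± 0.180, 82.5% ± 0.388 and 90.1% ± 0.324 in the same order (SD, n = 4 each). H2-T23 held 6.29%, 1.46%, 4.97% and 1.94% of heavy chain TPM in mutant cells in that order. In WT cells it held 8.48% to 9.38% under IFNg, 3.06% ± 0.0812 under Pam3CSK4, 9.84% ± 0.330 under both agonists and 3.53% ± 0.177 under vehicle.

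The balance of the classical genes also differed between the lines. The ratio of H2-D1 to H2-K1 TPM was 0.806 (0.775 to 0.830) in mutant vehicle libraries and 0.602 (0.597 to 0.607) in WT vehicle libraries. It was 0.777 in mutant and 0.573 in WT cells under IFNg, 0.740 and 0.561 under Pam3CSK4, and 0.716 and 0.562 under both agonists. The mutant libraries lay above the WT libraries in each treatment (two-sided exact permutation test, p = 0.0286 in each of 4 treatments and 0.0286 after adjustment over them, the smallest that 4 against 4 can give). B2m TPM was 2.08, 1.95, 1.93 and 2.01 times the summed heavy chain TPM in mutant cells (IFNg, Pam3CSK4, both, vehicle), and 2.06, 1.77, 2.04 and 1.70 times in WT cells.

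**Figure D5:**
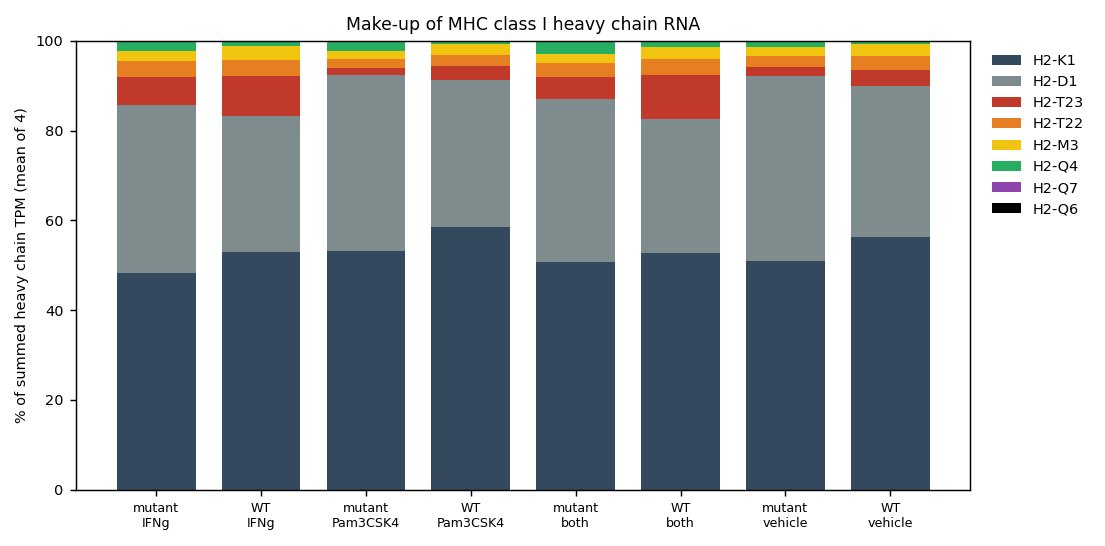
Share of each gene in the summed TPM of 8 MHC class I heavy chain genes (vertical axis, percent, means of 4 libraries) by group. H2-K1 and H2-D1 fill 82.5% to 92.4% of every bar, and the H2-T23 share is wider under IFNg and under both agonists, up to 9.84% in WT cells.

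Other genes of the class I pathway were read from lists. Of 13 peptide loading and immunoproteasome genes 10 rose and 0 fell with IFNg in mutant cells (median log2 0.56, against -0.010 over all genes tested), and 10 rose and 0 fell in WT cells (0.45, against -0.013). Of all tested genes 18.3% rose and 14.9% fell in mutant cells, and 17.8% rose and 17.6% fell in WT cells. Tap1, a subunit of the peptide transporter, rose by a log2 of 1.69 ± 0.04 in mutant and 2.20 ± 0.04 in WT cells. Tapbpl, which encodes the peptide editor TAPBPR, rose by 1.96 ± 0.07 and 1.65 ± 0.08. Under Pam3CSK4 2 of the 13 rose and 2 fell in each genotype, near the shares over all tested genes (11.5% rose and 12.8% fell in mutant cells, 10.4% and 11.7% in WT cells). In vehicle 7 of the 13 were higher in mutant cells and 2 lower, beside 24.4% and 29.3% of all tested genes. Psmb9, an immunoproteasome subunit, differed by 1.17 ± 0.06 and Tap1 by 1.07 ± 0.04, while Calr, the calreticulin chaperone, differed by -0.75 ± 0.03. Tap1 shared with Nlrc5 a smaller log2 response to IFNg in mutant cells (difference -0.51 ± 0.06, edgeR adjusted p = 4.3e-07).

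The factors that NLRC5 works with differed in both directions. Of 8 RFX, CREB/ATF and NF-Y genes 2 had higher and 3 had lower levels in mutant cells under vehicle, with a median log2 fold change of -0.03; these counts are near the shares over all tested genes (24.4% and 29.3%). Rfxank, an RFX subunit, had the widest of these differences, at -0.58 ± 0.08 under vehicle, -0.82 ± 0.08 under IFNg, -0.89 ± 0.08 under Pam3CSK4 and -0.82 ± 0.08 under both agonists. With IFNg 4 of the 8 rose and 2 fell in mutant cells, beside 18.3% and 14.9% of all tested genes, and 2 rose and 1 fell in WT cells, beside 17.8% and 17.6%. The median log2 fold changes were 0.11 in mutant and 0.07 in WT cells. Rfxank fell with IFNg in both lines, by 0.52 ± 0.08 on the log2 scale in mutant and by 0.28 ± 0.08 in WT cells.

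Genes of the agonists' own signalling pathways were read as well. Irf1, an IFNg-induced activator of class I genes, was at 493 ± 13.5 CPM in IFNg-treated mutant cells, against 22.5 ± 1.56 CPM in vehicle, and at 353 ± 3.76 CPM in IFNg-treated WT cells, against 11.3 ± 0.712 CPM in vehicle (SD, n = 4 each). Its log2 response to IFNg was 4.45 ± 0.05 in mutant and 4.96 ± 0.05 in WT cells, smaller in mutant cells (difference -0.51 ± 0.06, edgeR adjusted p = 4.3e-07). Of 6 NF-kB genes 5 rose and 0 fell with Pam3CSK4 in each line, beside 11.5% of all tested genes that rose in mutant and 10.4% in WT cells. Relb rose by a log2 of 3.71 ± 0.10 in mutant and 3.68 ± 0.12 in WT cells. Nfkb2 rose by 2.70 ± 0.06 and 2.01 ± 0.06, and its response was larger in mutant cells by 0.68 ± 0.09 (edgeR adjusted p = 3.5e-07).

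Of 20 further class I and class I-like genes 7 passed the filter on low counts. H2-T10, the near copy of H2-T22, averaged 2.21 ± 0.178 CPM in mutant vehicle and 0.219 ± 0.0633 CPM in WT vehicle cells (log2 3.35 ± 0.21), so reads divided between the pair bear on the H2-T22 values. H2-T24 rose with IFNg to 5.83 ± 0.585 CPM in mutant and 3.87 ± 0.310 CPM in WT cells, against 0.508 ± 0.0734 CPM and 0.228 ± 0.0399 CPM under vehicle. Of the 7 genes 4 had higher and 1 had lower levels in mutant vehicle cells, beside 24.4% and 29.3% of all tested genes. With IFNg 2 of the 7 rose and 2 fell in mutant cells (18.3% and 14.9% of all), and 1 rose and 2 fell in WT cells (17.8% and 17.6% of all).

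Class II genes, which serve CD4 T cells, were read beside them. Of 10 class II genes with their transactivator gene Ciita 8 were tested. With IFNg 1 rose and 3 fell in mutant cells (18.3% and 14.9% of all tested genes), and 0 rose and 1 fell in WT cells (17.8% and 17.6% of all). The gene that rose was Ciita, named after its value was seen, with 0.148 ± 0.0726 CPM under IFNg and 0.0458 ± 0.0264 CPM under vehicle in mutant cells (SD, n = 4 each). Ciita was at 0.274 CPM or less in every mutant library and at 0.208 CPM or less in every WT library.

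Across the 8 group means, the pattern of Nlrc5 was most like those of Usp18 (Pearson r = 0.982), Wdr12 (0.980), Epsti1 (0.979), Cmpk2 (0.978) and Mpeg1 (0.977). Among the class I genes its pattern was nearest to H2-T22 (0.875), H2-M3 (0.862) and H2-T23 (0.858), and farther from H2-K1 (0.577) and H2-D1 (0.547). The pattern of H2-K1 was most like Man1a (0.995) and Rad52 (0.995) outside the family, and within it like H2-D1 (0.988), B2m (0.971) and H2-Q4 (0.969), with H2-T23 at 0.224. H2-Q7 (0.990) had no counts in any WT library, so its value draws on a floor in the WT groups and is not read as likeness. The correlation leaves out the size of a change. Group means ran from 13.7 to 264 CPM for Nlrc5, from 0.326 to 26.5 CPM for Usp18 and from 141 to 178 CPM for Wdr12. They ran from 185 to 463 CPM for H2-K1, from 1.43 to 6.84 CPM for Man1a and from 9.86 to 14.2 CPM for Rad52. These correlations are descriptions over 8 means that share their libraries, and genes above 5 CPM in some group were searched.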

How the data were processed

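Total RNA was depleted of ribosomal RNA and made into stranded libraries, per the labels' protocols. Reads were aligned to mm10 with STAR 2.5.2b and quantified with RSEM 1.3.0, per the submitters' processing notes; the sources used here give neither annotation release nor strand setting. The deposited tables give, per the file headers, expected counts (estimated counts that need not be whole), TPM, FPKM and effective length for 55487 gene identifiers. Symbols came from GENCODE M21, which held 55394 of them ignoring the version.

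Expected counts were rounded and tested with edgeR 4.0.16 (glmQLFit and glmQLFTest, robust, TMM, R 4.3.3) in 1 fit of 32 libraries with a mean per group. filterByExpr kept 14869 genes, and p-values were adjusted by Benjamini-Hochberg over them in each of 19 contrasts, with a threshold of 0.05. CPM are TMM-scaled. TPM, as deposited by the authors, were used for shares and ratios, and some levels in TPM are given untested beside CPM. Deposited FPKM were used only as an alternative for the ratio of H2-D1 to H2-K1. The members and all gene and marker lists were chosen with earlier results of these data known, and the counts of 1 gene list are not reported here. Of each list up to 3 called rises and 3 called falls with the greatest log2 fold change were eligible to be named, if the gene reached 1 CPM in some group. The alternatives were RLE size factors, no filter, a replicate block, the share of structural RNA as a covariate, fits of the contrast's own groups, DESeq2 1.42.0 and leaving out each library. Same-numbered libraries did not deviate together (correlations from -0.24 to 0.23), so the numbers were not taken as pairs. No library was a duplicate of another library of its group, and libraries of different groups were not compared for this. The fit was tested on simulated data. A count of 0 was set against 3 counts summed over that group's 4 libraries; intervals are exact at 95% and cover counting error only.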

Additional observations from a re-analysis of the deposited data

Results flagged for a closer look

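In 3 of 71 combinations of gene and group 1 library stood apart from the other 3, where chance gives about 1 in 20. H2-K1 in mutant cells under Pam3CSK4 had 414 CPM in library 1 and 403 to 404 CPM in the others. Nlrc5 in mutant cells under IFNg had 278 CPM in library 4 and 239 to 245 CPM in the others. H2-T22 in WT cells under both agonists had 14.4 CPM in library 2 and 15.7 to 15.9 CPM in the others.

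The response to a treatment differed between the genotypes, by the edgeR test of the difference itself, in 11 cases. The mutant minus WT difference of the log2 response to IFNg was -1.50 for Nlrc5, 0.42 for H2-T23 and 0.35 for H2-T22. For Pam3CSK4 it was 0.72 for H2-Q4, 0.26 for H2-T22, 0.23 for H2-K1 and 0.21 for H2-D1. For both agonists it was -1.67 for Nlrc5, 0.27 for H2-K1, 0.24 for H2-T22 and 0.20 for H2-D1. Of all tested genes 0.827% were called higher and 0.820% lower in this difference for IFNg. The shares were 14.3% higher for Pam3CSK4, and 8.80% higher and 6.99% lower for both agonists. With the structural RNA share in the fit H2-D1 and H2-T22 lost their calls for Pam3CSK4 (edgeR adjusted p = 0.16 and 0.55) and for both agonists (0.061 and 0.37).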

How the results depend on the processing

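Of 160 values of single genes, the sign and the side of the threshold were kept in 154 with RLE size factors, 155 without the filter, 155 with DESeq2, 153 when only the groups compared were fitted, 157 with a replicate block and 141 with the share of structural RNA as a covariate. Levels in deposited TPM, which read otherwise for H2-K1, H2-D1 and H2-T23, were not among these settings. Counts of the 10 genes take in H2-Q6 and H2-Q7, which passed the filter only through the mutant groups, so they serve only to compare settings. With the replicate block the count of the 10 genes called in mutant over WT vehicle cells was 8, as in the fit without it. In the fit without it 24.4% of all tested genes were called higher and 29.3% lower. No count moved by over 1.5 times with the block. Leaving out WT vehicle libraries 1 and 4 was chosen after seeing the data and kept 149 of 160. Counts of the 10 genes that moved by over 1.5 times were Pam3CSK4 in WT cells (0 with the covariate, 1 without those libraries), the genotype difference for Pam3CSK4 (2 with the covariate) and for both agonists (2 with the covariate, 2 in the fit of the own groups), and the departure from the sum in WT cells (2 with the covariate, 1 without those libraries).

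Values that changed sign were near 0 and not called. With the covariate they were Nlrc5 under Pam3CSK4 in mutant (0.014) and WT cells (-0.055) and its genotype difference (0.068), H2-K1 under IFNg in WT cells (0.044, and 0.0076 without WT vehicle libraries 1 and 4), and H2-D1 under Pam3CSK4 in WT cells (0.046). H2-T23 under both agonists against IFNg in mutant cells was -0.0019 with RLE, -0.0058 without the filter, -0.0051 with the covariate, -0.0054 in the own groups and -0.0027 with DESeq2. Leaving out 1 library gave ranges of -0.034 to 0.026 for that value, -0.004 to 0.042 for H2-D1 under IFNg in mutant cells, -0.036 to 0.0057 for Nlrc5 under Pam3CSK4 in mutant cells, -0.015 to 0.0039 for H2-K1 under IFNg in WT cells, -0.0047 to 0.095 for the genotype difference of H2-M3 under IFNg, and -0.19 to 0.27 for the departure of H2-Q7 in mutant cells. The cause of these changes was not tested.

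H2-T23 under Pam3CSK4 lost its call in mutant cells without mutant Pam3CSK4 library 2 or mutant vehicle library 2 or 3, and its mutant excess without mutant Pam3CSK4 library 1 or WT Pam3CSK4 library 1 or 4. The genotype difference of H2-T22 under Pam3CSK4 lost its call without WT vehicle library 4 (0.22). The departure of H2-Q4 in WT cells lost its call in 11 of 32 omissions (0.39 to 0.48), and the genotype difference of H2-T22 for both agonists in 8 of 32 (0.20 to 0.30). The log2 ratio of H2-D1 to H2-K1, mutant minus WT, was 0.41 to 0.44 under vehicle, 0.43 to 0.46 under IFNg, 0.39 to 0.41 under Pam3CSK4 and 0.34 to 0.36 under both agonists when 1 library was left out; 3 against 4 cannot pass the threshold in an exact permutation test (smallest p = 0.0571). H2-Q6 and H2-Q7 rest on few counts, and 1 line per genotype and 1 time limit all comparisons.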
